A study of Mus musculus with 3 samples.

Results

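The *Hox* genes of the mouse lie in 4 clusters, and their chromatin accessibility was examined here in dopaminergic neurons (DNs) of the adult midbrain. Members were all protein-coding genes of GENCODE release M21 whose symbol is *Hoxa*, *Hoxb*, *Hoxc* or *Hoxd* followed by a number. This rule took 39 of 21755 protein-coding genes, with 11 genes in the *Hoxa* cluster on chromosome 6, 10 in *Hoxb* on chromosome 11, 9 in *Hoxc* on chromosome 15 and 9 in *Hoxd* on chromosome 2. The measurement was single-nucleus ATAC-seq (snATAC-seq), in which a transposase cuts and tags open chromatin inside isolated nuclei. Nuclei came from the ventral tegmental area (VTA) of wild-type C57Bl/6Nl male mice, aged 7 weeks in DN replicate 1 and 9 weeks in DN replicate 2. The authors chose the DN cluster of nuclei by the accessibility of marker genes, pooled both libraries and called 55326 peaks, each 500 bp wide, for which only the positions are known. The depth behind each peak is unknown from these positions, and a gene without a peak is one where no peak was listed. Bulk ATAC-seq of mouse embryonic stem cells, the other cell type of the series, was not analysed here.

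*Hox* genes encode homeodomain transcription factors that give cells along the head-to-tail axis their regional identity. Within a cluster, the genes are ordered by paralog group, from group 1, used most anteriorly, to group 13, used most posteriorly, and they are known for their expression in the hindbrain and spinal cord rather than in the midbrain. In cells that do not use them, the clusters are classically held silent by Polycomb proteins and opposed by Trithorax proteins. Their promoters are rich in CpG dinucleotides, and CpG-rich promoters are accessible in most cell types. Expression, histone marks and protein binding were not measured here.

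The DN label was checked against marker genes. All 9 markers of dopaminergic neurons, among them *Th*, the rate-limiting enzyme of dopamine synthesis, and *Slc6a3*, the dopamine transporter, had a peak within 1 kb of a transcription start site (TSS), although such genes were also used to choose the nuclei. The 3 markers of serotonergic neurons, which include cells of the *Hox*-expressing hindbrain, each had a peak too, with a median of 1 peak against 7 for the dopaminergic markers. Their part in the *Hox* results was not tested. A peak overlapped 1 of 5 markers of oligodendrocytes, 1 of 3 of astrocytes and 1 of 3 of microglia. None of these lay within 1 kb of a TSS. Over all protein-coding genes, 57.4% had a peak within 1 kb of a TSS. In the gene body extended by 2 kb on either side, 66.5% had one. The exact intervals for the share with a peak there were 66.4 to 100% for dopaminergic and 29.2 to 100% for serotonergic markers. They were 0.505 to 71.6% for oligodendrocytes and 0.84 to 90.6% for both astrocytes and microglia. All include 66.5%, so by this count the lists are too short to be told apart from other genes. *Cx3cr1* of microglia held 9 peaks, *Aldh1l1* of astrocytes held 6 and *Mag* of oligodendrocytes held 1. Markers with no peak included *Mog*, *Olig2* and *Sox10* for oligodendrocytes, *Gja1* and *Slc1a3* for astrocytes, and *P2ry12* and *Tmem119* for microglia. The part of these cell types in the *Hox* results was not tested either.

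Most *Hox* genes had no accessible peak in DNs. Peaks were counted in the gene body extended by 2 kb on either side, with an overlap of at least 1 bp. By this count, 35 of the 39 *Hox* genes had none, and the 4 genes with a peak were *Hoxa7*, *Hoxa9*, *Hoxc5* and *Hoxc10*, with 1 peak each. Thus 10.3% of *Hox* genes had a peak (95% exact Clopper-Pearson interval 2.87 to 24.2%). The share over all protein-coding genes was 66.5%. *Hox* genes are short, with a median length of 3.49 kb (range 1.85 to 50 kb), against 17.4 kb for all protein-coding genes. Among the 15332 protein-coding genes whose length lay in the *Hox* range, 63.0% had a peak, also above the *Hox* share. That range is wide and takes in most protein-coding genes, so this comparison matches gene length only loosely. Intervals cover counting error only, and neighbouring *Hox* genes share peaks, so the genes are not independent of each other. Because both libraries are pooled in 1 list, no spread between replicates could be given and no test across samples was possible.

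The 4 genes rested on only 2 different peaks. The peak in the *Hoxa* cluster (mm10, chr6:52221509-52222008) lay over the outermost annotated TSS of *Hoxa7* and within the extended window of the neighbouring *Hoxa9*, beyond the 3′ end of that gene. The centre of this peak was 96 bp from the outermost *Hoxa7* TSS, but 3.05, 4.25 and 4.31 kb from the other 3 TSSs of the gene. The outermost TSS is annotated in the comprehensive set of GENCODE transcripts and not in its basic set. The peak in the *Hoxc* cluster (chr15:102966513-102967012) lay over the only annotated TSS of *Hoxc10*, with its centre 34 bp from it. The same peak fell in the window of *Hoxc5* because a long non-coding transcript of *Hoxc5* begins just beyond it, whereas the TSS of the protein-coding *Hoxc5* transcript was 47.1 kb from the nearest peak. A promoter peak in the strict sense was therefore listed for *Hoxc10*, and for *Hoxa7* at an upstream start only.

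The stretch of the *Hoxa7* peak that lies upstream of the outermost TSS is shown as accessible *Hox* promoter sequence, and the *Hoxa13* promoter, which has the most CpGs among the *Hox* promoters without a peak that could be shown, is given for contrast. Sequences are from GRCm38, the assembly that mm10 is, read 5′ to 3′ on the strand of the gene, with each CG dinucleotide in capitals. The *Hoxa13* promoter is the RefSeq entry for the 250 bases before the start of the gene, and 22 of the 39 *Hox* genes had such an entry.
*Hoxa7*, upstream start, chr6:52221855-52222008, minus strand: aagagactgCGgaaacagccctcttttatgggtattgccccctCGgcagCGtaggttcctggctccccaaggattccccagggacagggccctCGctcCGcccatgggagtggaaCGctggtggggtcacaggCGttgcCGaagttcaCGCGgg
*Hoxa13*, no peak, chr6:52260881-52261130, minus strand: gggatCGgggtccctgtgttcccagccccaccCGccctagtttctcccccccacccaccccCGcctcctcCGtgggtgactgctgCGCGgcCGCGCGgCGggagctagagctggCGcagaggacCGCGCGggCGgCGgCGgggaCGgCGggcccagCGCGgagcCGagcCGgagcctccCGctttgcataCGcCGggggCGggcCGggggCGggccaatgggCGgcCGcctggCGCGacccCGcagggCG
The 154 bases shown for *Hoxa7* hold 10 CpGs and the 250 bases for *Hoxa13* hold 35, so the promoter without a peak has more CpGs than the stretch with one.

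**Figure D1:**
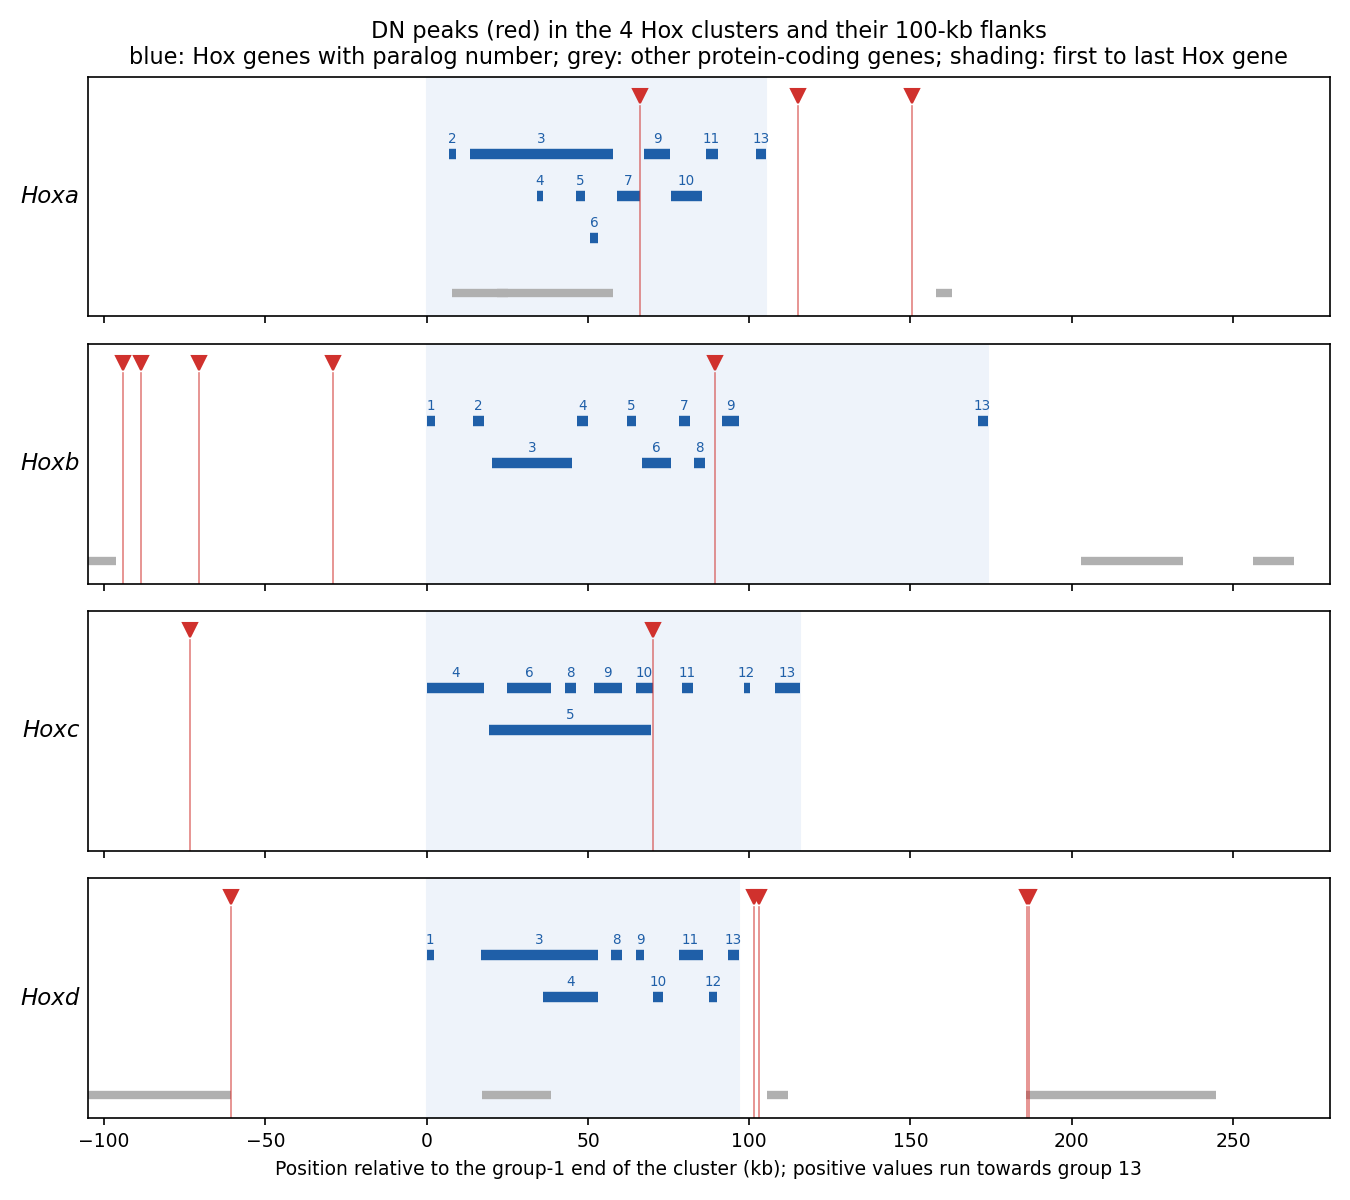
Positions of DN peaks (red markers) along each *Hox* cluster, in kb from the group-1 end, with *Hox* genes in blue (1 gene is not drawn, and overlapping genes are on separate rows), other protein-coding genes in grey and the span from the first to the last *Hox* gene shaded. Each of *Hoxa*, *Hoxb* and *Hoxc* holds 1 peak and *Hoxd* holds none, while 12 peaks lie in the 100-kb flanks.

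Within the spans from the first to the last *Hox* gene, the clusters held 3 peaks in 0.492 Mb. The *Hoxa* cluster (chr6:52155590-52260880, 105.3 kb) held 1 peak, the *Hoxb* cluster (chr11:96194316-96368256, 173.9 kb) held 1, the *Hoxc* cluster (chr15:102921103-103036852, 115.8 kb) held 1 and the *Hoxd* cluster (chr2:74668310-74765142, 96.8 kb) held none. The density was 6.1 peaks per Mb, against 21 peaks per Mb over all chromosomes with peaks. The third peak (chr11:96278727-96279226) lay between *Hoxb9* and *Hoxb8*, 2.93 kb upstream of the nearest TSS of *Hoxb8* and outside the extended window of every *Hox* gene. It differed in base composition from the peaks at *Hoxa7* and *Hoxc10*, with a GC content of 40.6% and 9 CpGs in 500 bp, where the *Hoxa7* peak had 61.6% and 34 CpGs and the *Hoxc10* peak 59.2% and 36 CpGs. Over all 55326 peaks, the median GC content was 52% and the median number of CpGs was 10. The central 200 bases of this intergenic peak are shown, as it is the only peak inside a cluster that is away from a promoter.
Between *Hoxb9* and *Hoxb8*, chr11:96278877-96279076, plus strand: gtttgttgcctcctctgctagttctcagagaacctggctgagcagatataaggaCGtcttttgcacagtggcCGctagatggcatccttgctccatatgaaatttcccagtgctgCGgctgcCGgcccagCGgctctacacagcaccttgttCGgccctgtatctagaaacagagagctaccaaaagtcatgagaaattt
With 6 CpGs in these 200 bases, the stretch is sparser in CpGs than both promoter stretches above.

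The clusters are dense in genes, and most gene-dense tiles of 100 kb held more peaks. Chromosomes were cut into 100-kb tiles, where the clusters span 96.8 to 173.9 kb, and peaks were counted by their centres. Tiles that overlap the *Hox* clusters were kept. The 132 tiles with at least 8 TSSs of protein-coding genes held a median of 13 peaks (quartiles 6 and 19), and 15.2% of them held at most 1 peak, as each *Hox* cluster did. Over all 26330 tiles, most of which hold few genes, the median was 1 peak and 61.8% held at most 1. The *Hox* clusters thus had as few peaks as the typical tile of the genome, but fewer than most tiles with at least 8 TSSs of protein-coding genes.

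Base composition also set the clusters apart from their chromosomes. The GC content of the clusters lay between 48.9% and 50%, against 41.4% to 43.8% for the 4 chromosomes. The ratio of observed to expected CpGs was 0.48 in *Hoxa*, 0.35 in *Hoxb*, 0.36 in *Hoxc* and 0.46 in *Hoxd*, against 0.19 or 0.20 for their chromosomes. Repeats made up 13.4% to 24.6% of the clusters and 30.6% to 33.8% of the chromosomes, and no base of the clusters was undetermined in the assembly. The few peaks were therefore listed in sequence that is richer in GC and CpG and poorer in repeats than the chromosomes around it.

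**Figure D2:**
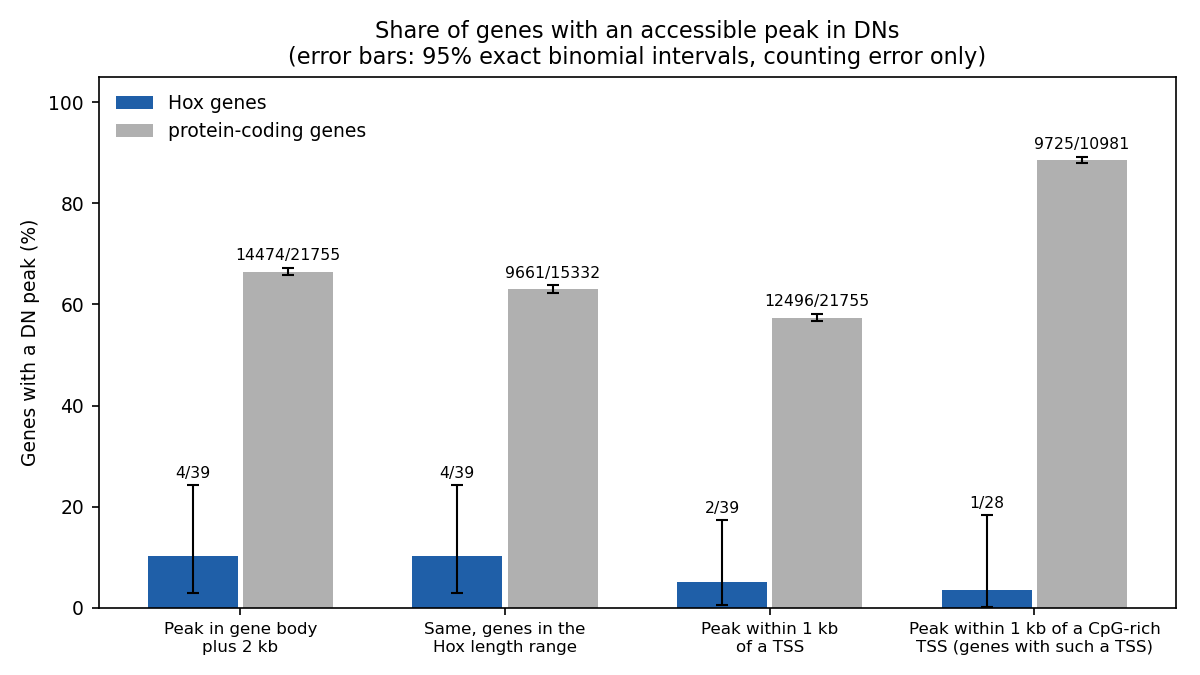
Share of *Hox* genes (blue) and of protein-coding genes (grey) with a DN peak, in percent, by 4 counts, with 95% exact binomial intervals as bars and the number of genes above them. The *Hox* share is 3.57% to 10.3% and the share of protein-coding genes 57.4% to 88.6%.

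Promoters were examined next. A peak lay within 1 kb of any annotated TSS in 2 of 39 *Hox* genes, *Hoxa7* and *Hoxc10* (5.13%, interval 0.627 to 17.3%), against 57.4% of all protein-coding genes. The 39 genes have 62 annotated TSSs, and 2 of these had a peak within 1 kb. When only the 55 TSSs of the basic annotation were used, a choice made after seeing the data, *Hoxc10* alone had a promoter peak. No *Hoxb* or *Hoxd* gene had a peak at any TSS.

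CpG-rich promoters were examined separately. A TSS was called CpG-rich when the 500 bp on either side had a GC content of at least 50% and an observed/expected CpG ratio of at least 0.6. By this measure, 28 of 39 *Hox* genes (71.8%) had a CpG-rich TSS, against 50.5% of all protein-coding genes. Of these 28 genes, 1 had a peak within 1 kb of its CpG-rich TSS, namely *Hoxa7* at its outermost start (3.57%, interval 0.0904 to 18.3%). The same count over all genes with a CpG-rich TSS gave 88.6%, or 9725 of 10981 genes. The remaining 27 *Hox* genes belong to the 1256 genes with a CpG-rich TSS but no peak there. The shares of *Hox* genes and of all genes were thus farther apart among CpG-rich promoters than over all promoters. The *Hoxc10* TSS had a ratio of 0.59, just under the limit, and so was not among the CpG-rich.

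The *Hox* promoters with the most CpGs had no peak. *Hoxd8* had 147 CpGs in the 1 kb around its TSS, *Hoxa13* had 137, *Hoxa4* had 125, *Hoxd13* had 118 and *Hoxd11* had 113, where the median was 62 for *Hox* genes and 68 for protein-coding genes with a promoter peak. The nearest peaks to these 5 genes were 40.8, 9.81, 30, 4.53 and 18.5 kb away, respectively. At the other end, *Hoxb3* had 22 CpGs and *Hoxb2* and *Hoxc6* had 26 each. Each annotated TSS was also classed by its own CpG ratio, a grouping chosen after seeing the data. Over all protein-coding genes, the share of TSSs with a peak within 1 kb went from 6.59% at ratios under 0.2 to 95.9% at ratios of 1.0 and above. In the class from 0.6 to 0.8, 87.0% of all TSSs had a peak, against 1 of 19 *Hox* TSSs, the outermost start of *Hoxa7* with a ratio of 0.64. In the class from 0.8 to 1.0, 93.8% of all TSSs had a peak and none of the 18 *Hox* TSSs did. The other *Hox* TSS with a peak, that of *Hoxc10*, was 1 of 13 in the class from 0.4 to 0.6, where 64.7% of all TSSs had a peak.

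**Figure D3:**
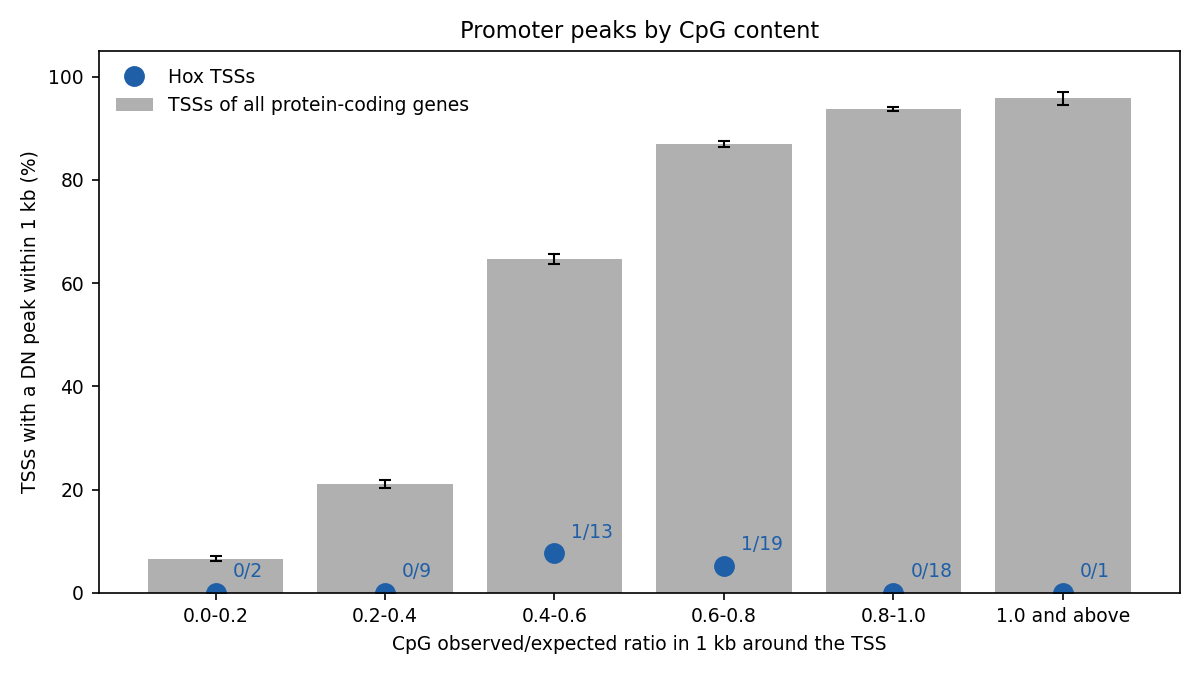
Share of annotated TSSs of protein-coding genes with a DN peak within 1 kb, in percent, by the CpG observed/expected ratio around the TSS (grey bars, with 95% exact binomial intervals), and the *Hox* TSSs of each class (blue points, with counts). The share goes from 6.59% to 95.9% over all TSSs, whereas the *Hox* points lie below the bars, at 0 or 1 TSS in each class.

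Distances to the nearest peak showed how far from a listed peak the *Hox* promoters lie. The median distance from the closest TSS of a *Hox* gene to the nearest peak centre was 24.5 kb (quartiles 10.5 and 45 kb), against 0.223 kb for all protein-coding genes and 0.0625 kb for genes with a CpG-rich TSS. More than 10 kb separated 29 of 39 *Hox* genes (74.4%) from a peak, which was the case for 33.5% of all protein-coding genes and 8.46% of those with a CpG-rich TSS.

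In the *Hoxa* cluster, from *Hoxa2* to group 13, the distances were 56.9 kb for *Hoxa2*, 8.64 for *Hoxa3*, 30 for *Hoxa4*, 17.2 for *Hoxa5*, 13 for *Hoxa6*, 0.0955 for *Hoxa7*, 4.43 for *Hoxa9*, 13.2 for *Hoxa10*, 24.1 for *Hoxa11* and 9.81 kb for *Hoxa13*. The value of *Hoxa3*, lower than those of its neighbours, is that of an upstream TSS, and its inner TSS was 37.9 kb from a peak. In the *Hoxb* cluster, the distances were 31.5 kb for *Hoxb1*, 45.7 for *Hoxb2*, 44.3 for *Hoxb3* and 39.3 for *Hoxb4*, 24.5 for *Hoxb5*, 13.5 for *Hoxb6*, 7.65 for *Hoxb7*, 2.93 for *Hoxb8* and 7.45 kb for *Hoxb9*. From *Hoxb3* to *Hoxb9* the nearest peak was the one between *Hoxb9* and *Hoxb8*, whereas for *Hoxb1* and *Hoxb2* it lay in the flank. *Hoxb13*, which is set apart from the rest of its cluster by a long intergenic stretch, was 84.7 kb away, the longest distance of the 39 genes.

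In the *Hoxc* cluster, the distances were 52.2 kb for *Hoxc4*, 47.1 for *Hoxc5*, 42.8 for *Hoxc6*, 23.8 for *Hoxc8*, 9.68 for *Hoxc9*, 0.0335 for *Hoxc10*, 12.3 for *Hoxc11*, 30 for *Hoxc12* and 45.7 kb for *Hoxc13*. All 9 reflect how far each gene lies from the peak at *Hoxc10*. In the *Hoxd* cluster, which has no peak of its own, they were 62.9 kb for *Hoxd1*, 48.1 for *Hoxd3*, 58.2 for *Hoxd4*, 40.8 for *Hoxd8*, 33.9 for *Hoxd9*, 28.1 for *Hoxd10*, 18.5 for *Hoxd11*, 11.2 for *Hoxd12* and 4.53 kb for *Hoxd13*. The peaks nearest to the posterior *Hoxd* genes lay beyond *Hoxd13*, outside the cluster.

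By paralog group, the anterior genes were the farthest from a peak. The 12 genes of groups 1 to 4 had no peak in their windows and a median distance of 46.9 kb, with 8.64 kb as the shortest. Of the 11 genes of groups 5 to 8, 2 had a peak and the median distance was 17.2 kb (range 0.0955 to 47.1 kb), and of the 16 genes of groups 9 to 13, 2 had a peak and the median was 12.8 kb (range 0.0335 to 84.7 kb). The ranges overlap, and within a cluster the distances depend on the same few peaks, so this order describes where those peaks lie and was not tested.

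**Figure D4:**
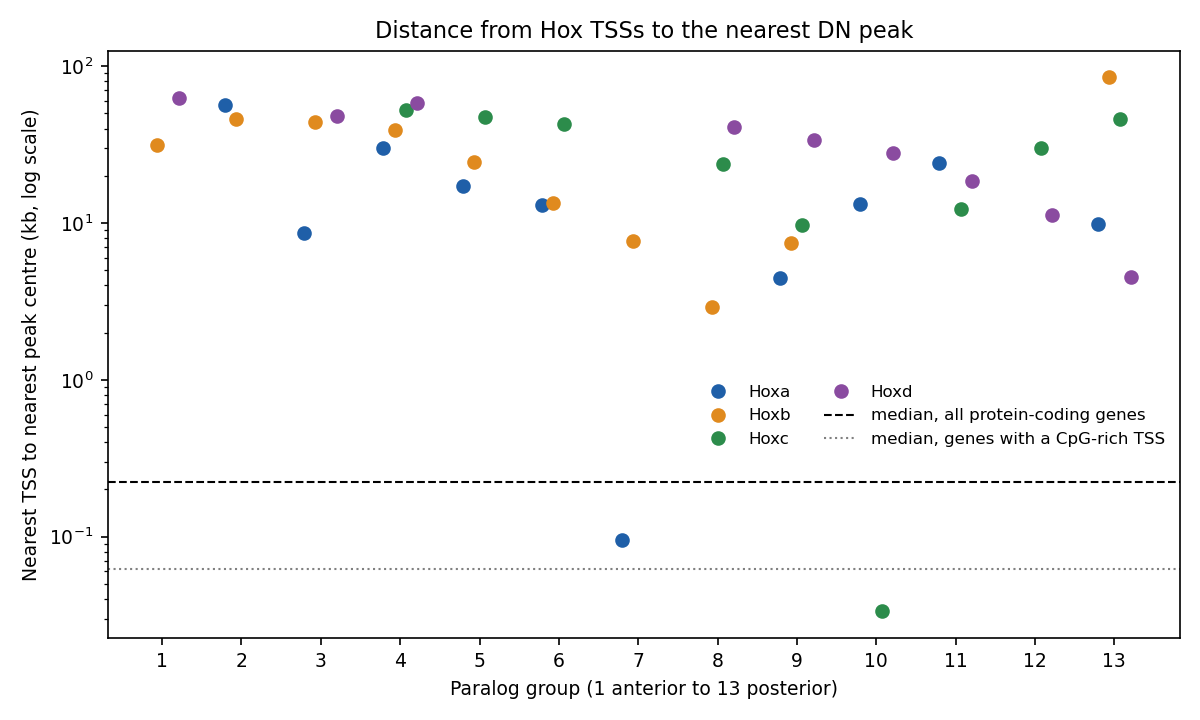
Distance from the closest TSS of each *Hox* gene shown to the nearest DN peak centre (kb, log scale) by paralog group, coloured by cluster, with the median of all protein-coding genes (0.223 kb, dashed) and of genes with a CpG-rich TSS (0.0625 kb, dotted). *Hoxa7* and *Hoxc10* lie below the dashed line and the other genes shown lie above it, at 2.93 kb or more.

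Summed over the clusters, peaks were more frequent farther away, but the clusters differed. From 6.1 per Mb inside the clusters, the density went to 15 per Mb in the first 100 kb on either side (12 peaks), 32.5 per Mb from 100 to 200 kb, 38.8 per Mb from 200 to 500 kb and 38 per Mb from 500 kb to 1 Mb. Of the 26 peaks from 100 to 200 kb, 24 were at *Hoxc*, whereas *Hoxa*, *Hoxb* and *Hoxd* together had 11 peaks in the first 100 kb and 2 in the next. From 100 kb to 1 Mb, the density was 69.4 per Mb around *Hoxc* and 48.3 per Mb around *Hoxb*, and 20 per Mb around *Hoxa* and 12.8 per Mb around *Hoxd*. The chromosomes that hold them had 22.3, 35.6, 18.5 and 24.1 peaks per Mb, in the same order. Of the 18 bins of 100 kb at these distances, 6 held at most 1 peak around *Hoxc* and 3 around *Hoxb*, whereas 11 (61.1%) did around *Hoxa* and 13 (72.2%) around *Hoxd*, beside 61.8% of all 100-kb tiles. The surroundings of *Hoxb* and *Hoxc* were thus denser in peaks than their chromosomes, those of *Hoxa* were close to its chromosome and those of *Hoxd* were sparser.

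The longest peak-free stretch that touched each cluster was 208.7 kb at *Hoxa*, 243.6 kb at *Hoxb*, 158.7 kb at *Hoxc* and 161.6 kb at *Hoxd*. The median gap between neighbouring peaks was 10.7 kb over all chromosomes. Gaps of at least these lengths made up 3.99%, 3.19%, 5.75% and 5.63% of the 55306 gaps, respectively. These shares count gaps, and a long gap covers more sequence than a short one. They are therefore not the share of the genome that lies in such stretches, which is larger. At *Hoxd*, the stretch covered the whole cluster, from beyond *Hoxd13* to the promoter of *Mtx2*, a mitochondrial import gene. At *Hoxb*, it ran from the peak between *Hoxb9* and *Hoxb8* past *Hoxb13* into the neighbouring genes.

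**Figure D5:**
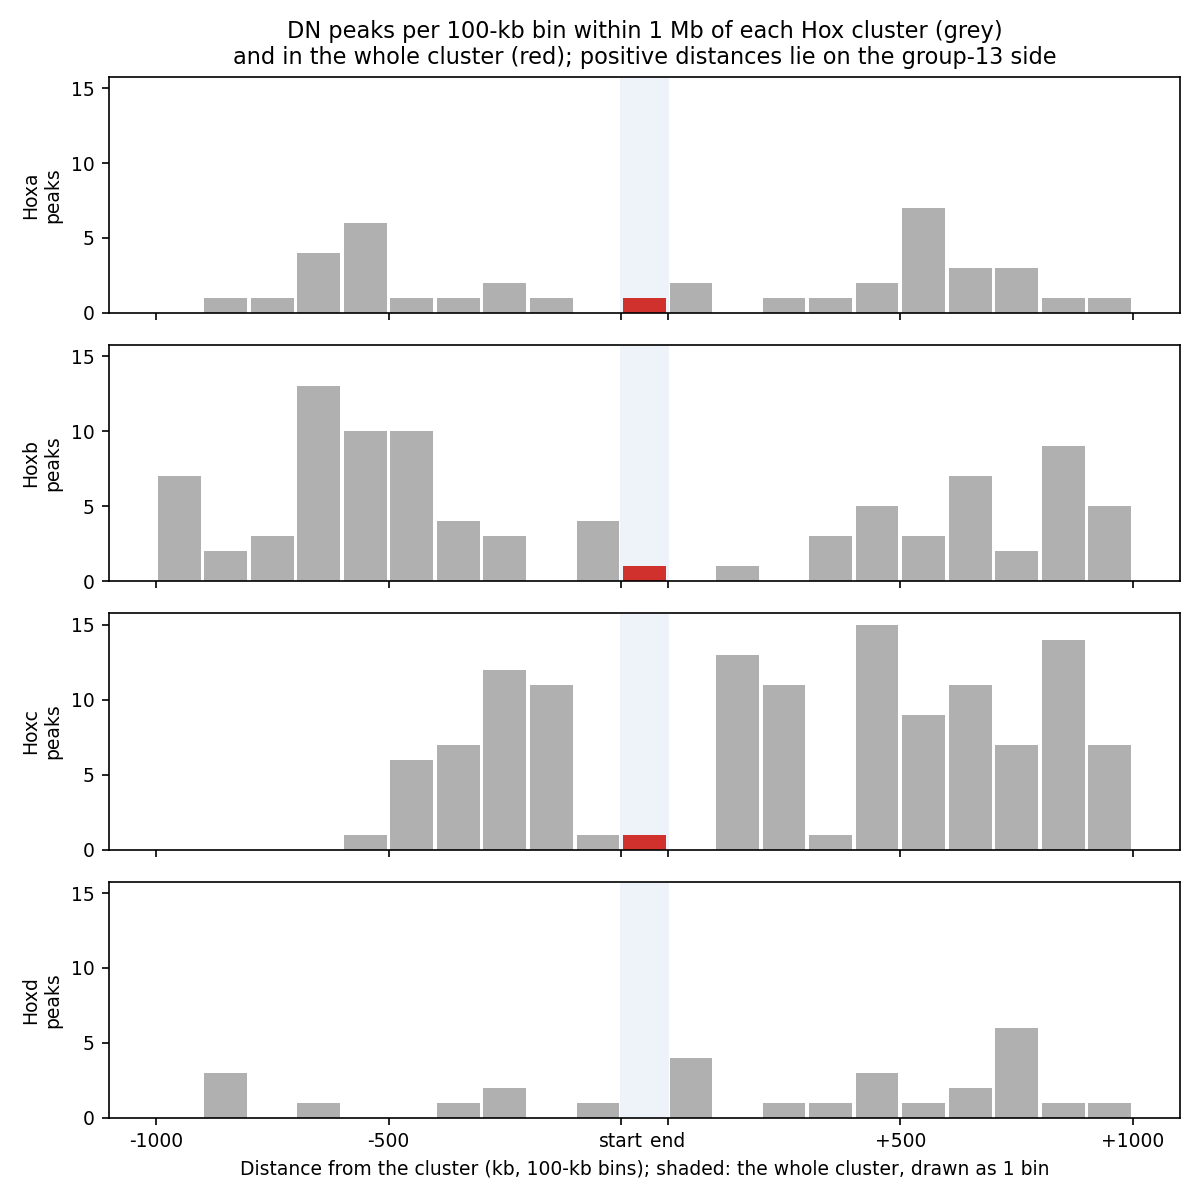
Number of DN peaks in 100-kb bins within 1 Mb of each *Hox* cluster (grey), with the whole cluster drawn as 1 bin (red), although the clusters are 96.8 to 173.9 kb long. The clusters hold 0 or 1 peak, while bins from 100 kb to 1 Mb reach 15 peaks around *Hoxc*, 13 around *Hoxb*, 7 around *Hoxa* and 6 around *Hoxd*.

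The 12 peaks in the flanks were unevenly placed. At *Hoxa*, both lay on the group-13 side, 1 of them 9.81 kb upstream of *Hoxa13* (chr6:52270444-52270943) and the other 7.42 kb upstream of *Evx1* (chr6:52305831-52306330), a homeobox gene next to the cluster. At *Hoxb*, all 4 lay on the group-1 side, and 3 of them were 2.22, 7.83 and 25.7 kb upstream of *Skap1*, which encodes an adaptor of T cell signalling. The only flanking peak at *Hoxc* (chr15:103109919-103110418) lay on the group-1 side, 47.8 kb from the nearest coding TSS. At *Hoxd*, 1 peak lay at the promoter of *Mtx2* and 2 lay at the promoter of *Lnpk*, which shapes the endoplasmic reticulum, so 3 of the 5 flanking peaks were at promoters of neighbours that are not homeobox genes.

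The other 2 *Hoxd* peaks (chr2:74661760-74662259 and chr2:74663534-74664033) lay in the stretch between *Hoxd13* and *Evx2*, the homeobox gene beside it, and are the pair of peaks nearest to any cluster from outside. Their centres were 2.45 and 4.23 kb upstream of the *Evx2* TSS. The *Hoxd13* TSS was 4.53 kb from the nearer of them. Neither peak overlapped a gene. The central 200 bases of each are shown as they are the listed peaks closest to the posterior *Hoxd* genes.
Nearer to *Evx2*, chr2:74661910-74662109, plus strand: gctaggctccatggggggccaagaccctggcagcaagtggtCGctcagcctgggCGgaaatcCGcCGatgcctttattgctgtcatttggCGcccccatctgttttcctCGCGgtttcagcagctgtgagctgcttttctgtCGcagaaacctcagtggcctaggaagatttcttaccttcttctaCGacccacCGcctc
Nearer to *Hoxd13*, chr2:74663684-74663883, plus strand: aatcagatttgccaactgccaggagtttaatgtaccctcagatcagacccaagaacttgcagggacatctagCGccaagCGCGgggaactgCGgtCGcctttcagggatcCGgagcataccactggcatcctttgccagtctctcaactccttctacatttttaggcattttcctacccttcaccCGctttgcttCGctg
These stretches hold 10 and 8 CpGs, respectively.

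Short motifs were searched on both strands of the 15 peaks in the clusters and flanks. TAATTA, the core motif bound by many homeodomain proteins, was in 3 of the 15 peaks, against 7.27% of all peaks in the list, and the 3 were the peaks at *Hoxc10*, upstream of *Evx1* and in the *Hoxc* flank. TGATTNAT, a composite motif of PBX and HOX proteins that can share bases with the homeodomain core, was in 1 of 15 peaks, against 4.44% of all peaks. The retinoic acid response element with a spacer of 5, known from regulatory sequence of *Hox* genes, was in none, against 0.155% of all peaks. The CTCF consensus, for the protein that marks many domain boundaries, was in none, against 5.25% of all peaks. With 1 mismatch allowed, a choice made after that result was seen, the CTCF consensus was in 4 of 15 peaks, against 17.9% of all peaks, and 2 of the 4 were the *Hoxa7* peak and the peak between *Hoxb9* and *Hoxb8*. With 15 peaks, these counts are descriptions only.

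The clusters also hold microRNAs, some of which are known to act on *Hox* transcripts. None of the 7 microRNA genes of the clusters had a peak within 2 kb, where 22.7% of all 2196 microRNA genes did. With 7 genes and this background, the count says little about them. The mature sequences of the best-known ones are given from RefSeq (GRCm38), with the seed (bases 2 to 8), the part that pairs with targets, in capitals, as they show which genes of different clusters make microRNAs of 1 family.
miR-10a-5p, *Hoxb* cluster: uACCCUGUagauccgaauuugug
miR-10b-5p, *Hoxd* cluster: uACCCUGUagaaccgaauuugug
miR-196a-5p, *Hoxb* and *Hoxc* clusters: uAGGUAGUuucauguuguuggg
miR-196b-5p, *Hoxa* cluster: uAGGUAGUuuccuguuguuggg
miR-615-3p, *Hoxc* cluster: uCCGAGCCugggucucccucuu
Both members of the miR-10 family share the seed ACCCUGU, and the miR-196 family shares AGGUAGU. The miR-10 sequences were 38.2 kb (*Mir10a*) and 62.3 kb (*Mir10b*) from the nearest peak centre. The miR-196 sequences were closer, at 13.8 kb for *Mir196a-1*, 6.61 kb for *Mir196a-2* and 8.38 kb for *Mir196b*, and *Mir615* was 48.2 kb away.

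Named long non-coding RNA genes were counted in the same way. Over all chromosomes, 44.5% of 3534 named non-coding genes of these types had a peak. Of 16 named non-coding genes in the clusters and flanks, 2 had a peak, none of the 10 inside the clusters and 2 of the 6 outside (*4930445N08Rik*, which shares a peak with the *Lnpk* promoter, and *D930007P13Rik*). No peak was listed at *Hotair* in the *Hoxc* cluster, which was 19 kb from a peak, or at *Hottip* beside *Hoxa13*, which was 7.92 kb from a peak. *Hotairm1* at the anterior end of *Hoxa* and *Haglr* in *Hoxd* were 64.9 and 63 kb away. Of 10 other protein-coding genes in the clusters and flanks, the 3 that lie inside the clusters had no peak, and 3 of the 7 outside had one or more, with 7 at *Skap1*, 2 at *Lnpk* and 1 at *Mtx2*. Over all protein-coding genes, 66.5% had a peak. Peaks were counted over whole genes. *Skap1* and *D930007P13Rik* run beyond the flanks, so not all of their peaks lie in the flanks.

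Genes of proteins that work with HOX proteins or control the clusters had promoter peaks about as often as other genes with CpG-rich starts. Among the 9 genes of TALE homeodomain cofactors, which bind DNA together with HOX proteins, 8 had a peak in the extended gene body and all 8 had it at a TSS (88.9%, interval 51.8 to 99.7%). *Pknox2* held 20 peaks, and *Meis2* was the member without a peak. Of 19 Polycomb genes, 18 had a promoter peak (94.7%, interval 74 to 99.9%), including *Ezh2*, the methyltransferase, and *Suz12* and *Eed*, its partners. *Phf19* was the exception, at 43 kb from the nearest peak. All 8 genes of Trithorax proteins and of opposing histone demethylases, such as *Kmt2a* and *Kdm6b*, had a promoter peak, with 11 peaks over *Kdm6b*. Counted at CpG-rich starts, the numbers were 6 of 7 TALE genes, 18 of 19 Polycomb genes and 7 of 7 Trithorax and demethylase genes, beside 88.6% of all genes with such a start. Over all protein-coding genes, 57.4% had a promoter peak, which lies below the intervals for the Polycomb genes and for the Trithorax list (63.1 to 100%) and inside that for the TALE genes.

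Genes that pattern the midbrain and hindbrain or specify DNs were counted as well. All 8 genes of the list of midbrain dopaminergic transcription factors had a promoter peak, with 32 peaks over *Lmx1b* and 8 over *Lmx1a*, but members of this list are among the genes that define DNs. In the list of 11 genes that pattern the midbrain and hindbrain, 9 had a peak (81.8%, interval 48.2 to 97.7%) and 8 had it at a TSS, near the 66.5% and 57.4% of all genes. At CpG-rich starts, 7 of 10 had a peak, against 88.6% of all genes. The genes with a peak include *Egr2*, a hindbrain regulator of *Hox* genes, with 2 peaks. *Gbx2* and *Pax2* had no peak, and their nearest peaks were 12.2 and 128.0 kb away.

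Homeobox genes of other families, many of which have a relative beside them on the chromosome while others stand alone, were counted for comparison. Of 26 such genes, among them those of the *Dlx*, *Irx*, *Nkx2* and *Evx* families, 9 had a peak (34.6%, interval 17.2 to 55.7%), against 66.5% of all protein-coding genes, and 7 had a promoter peak (26.9%), against 57.4%. The share with a peak lay above the interval of the *Hox* genes (2.87 to 24.2%), although the intervals of the families and of the *Hox* genes overlap, and the difference was not tested. Among those with a CpG-rich TSS, 7 of 23 had a peak there, against 1 of 28 *Hox* genes and 88.6% of all genes. *Irx3* and *Irx5* held 3 peaks each, whereas *Nkx2-1*, a forebrain factor, was 189.2 kb from the nearest peak and *Dlx5*, also a forebrain factor, 73.8 kb. Few promoter peaks at CpG-rich starts were thus found in these families as well as in the *Hox* genes.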

How the data were processed

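The authors mapped snATAC-seq reads of 2 VTA libraries to mm10 with Cell Ranger, removed doublets and nuclei of low quality, chose the DN cluster by gene scores and called reproducible peaks on pooled pseudobulk replicates with ArchR. They deposited the start and end of each peak, with no score, height or count. Whether a filter on the share of nuclei that the paper describes had been applied to this list is not given in the sources used here. Starts were read as counted from 0, and printed positions count from 1.

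Peaks were joined to GENCODE M21 genes and GRCm38 sequence with Python 3.11.15, numpy 2.4.6, scipy 1.17.1 and pysam 0.24.0. TSSs are those of protein-coding transcripts. Counting was checked on simulated peaks. *Hox* genes with a peak were all named. From other lists only some genes were named, not always those with the most peaks or none. Members and gene lists were chosen with earlier results of these data known. Alternatives changed the windows, the peak rule, the TSS set and the CpG limits. The 2 libraries were run on different sequencers, and they are pooled in the list used here. Signal per library was not analysed here. Results for a few genes and 1 sequence are not reported here.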

Additional observations from a re-analysis of the deposited data

How the results depend on the processing

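Of 75 values recomputed under 11 alternatives, 63 stayed within 1.5 times of the reported value. With no extension of the gene body, 2 *Hox* genes had a peak (*Hoxa7* and *Hoxc10*), and with 5 kb on either side 7 did (with *Hoxb8*, *Hoxb9* and *Hoxd13* added), from 4 different peaks, beside 63.8% and 69.2% of all genes. With the TSSs of the basic annotation, an alternative added after seeing the data, 1 *Hox* gene had a promoter peak (*Hoxc10*), and of 27 genes with a CpG-rich TSS 0 had a peak there, as did 0 of 15 genes under a CpG ratio of at least 0.75 and a GC content of at least 55%, beside 88.6% and 91.6% of all such genes. Flanks of 50 kb held 5 peaks in all (1 at *Hoxb*, 0 at *Hoxc* and 2 at *Hoxd*), and flanks of 200 kb held 38, of which 25 were at *Hoxc*. Counting peaks by their centres and reading starts as counted from 1 left every value within 1.5 times. No stricter peak threshold could be tried, since no score is given.

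No paired analysis was possible because the peak list used here pools both replicates, so no library was left out. Signal per library was not analysed here. The depth of the calls limits every count of genes without a peak, and it is unknown from positions alone.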
